A study of Mus musculus with 13 samples.

Results

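Trem2, Tyrobp and Clec7a with the signalling genes Syk, Plcg2, Inpp5d, Vav1 and Card9 were read in the cortex of amyloid-depositing mice with and without Apoe. The 8 genes were taken by exact name from a table of 20971 genes, and all 8 were found. RNA was sequenced from the cortex of C57BL/6 mice aged 6 months, with 6 libraries labelled APPPS1 and 7 labelled APPPS1;Apoe-/-. By their labels both groups carry the APPPS1 transgenes (APPPS1-21 in the series' design text), which encode mutant human amyloid precursor protein and mutant human presenilin 1 under the neuronal Thy1 promoter. The APPPS1;Apoe-/- mice lack both copies of Apoe, the gene for the main lipid carrier of the brain. No group is labelled as free of the transgenes, so the study has no control group without amyloid. The comparison addresses how the loss of Apoe alters cortical expression in this amyloid model.

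TREM2 is a lipid-binding receptor on the surface of microglia and other myeloid cells. It has no signalling tail of its own and pairs with the adaptor TYROBP (DAP12), whose immunoreceptor tyrosine-based activation motif (ITAM) recruits the kinase SYK once phosphorylated. CLEC7A (dectin-1), a receptor for fungal glucans, carries a related motif in its own tail and recruits SYK directly. SYK acts on PLCG2, a phospholipase that yields calcium and lipid signals, and on VAV1, a guanine nucleotide exchange factor for Rac. CARD9 is an adaptor that links SYK to NF-kappaB, and INPP5D (SHIP1) is a lipid phosphatase that opposes phosphoinositide 3-kinase. In brains with amyloid, Trem2, Tyrobp and Clec7a are known as genes of plaque-associated microglia.

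Of the 13 libraries 2 stood apart by low App and Thy1. App measured 106 and 116 RPKM (reads scaled to gene length and to the mapped reads of the library) in APPPS1;Apoe-/- replicates 2 and 5, and 176 to 217 RPKM in all others. The same 2 had the lowest Thy1, with 52.2 and 56.9 RPKM beside 172 to 245 RPKM. Reads of the transgenes can align to both mouse genes. Whether these 2 mice carried the transgenes was not tested. The changes of the tested members and of the called genes around them are therefore given with all 13 libraries and without these 2 low-App libraries. Apoe was at 463 to 670 RPKM with the gene present and at 4.01 to 6.35 RPKM in its absence. The depth differed, from 28402328 to 77005806 alignments for APPPS1 libraries and from 18455493 to 34538031 for APPPS1;Apoe-/- libraries. As for the labelled tissue, Snap25, a synaptic protein of all neurons, ran from 1991 to 2694 RPKM over the 13 libraries. Slc17a7, the vesicular glutamate transporter of cortical excitatory neurons, ran from 29.3 to 55.5 RPKM. It fell from 47.7 ± 6.65 to 35.6 ± 6.17 RPKM (-0.42, limma adjusted p = 0.0245), and was not called with 11 libraries (-0.36, adjusted p = 0.0863). Its part in the results below was not tested.

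The starts of the genes differ in their sequence. RefSeq (GRCm38.p6) gave windows from 250 bases before to 50 bases after the start for 7 of the 8 genes. The last 150 bases before the start are shown for the receptors Trem2 and Clec7a, which were lower without Apoe, and for Plcg2, Vav1 and Inpp5d, where a searched motif was found. The stretches lie at chr17:48346251-48346400 on the plus strand (Trem2), chr6:129472780-129472929 on the minus strand (Clec7a) and chr8:117498125-117498274 on the plus strand (Plcg2). Those of Vav1 and Inpp5d lie at chr17:57278950-57279099 and chr1:87620162-87620311, both on the plus strand. Capitals mark the motifs found, GAGGAAGT in Vav1 and Inpp5d and CACGTG in Plcg2.
Trem2: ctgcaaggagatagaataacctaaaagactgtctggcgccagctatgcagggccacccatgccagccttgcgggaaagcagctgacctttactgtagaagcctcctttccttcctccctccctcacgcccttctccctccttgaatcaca
Clec7a: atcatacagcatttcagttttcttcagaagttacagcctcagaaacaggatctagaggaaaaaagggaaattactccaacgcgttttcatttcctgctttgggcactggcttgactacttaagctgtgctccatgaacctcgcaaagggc
Plcg2: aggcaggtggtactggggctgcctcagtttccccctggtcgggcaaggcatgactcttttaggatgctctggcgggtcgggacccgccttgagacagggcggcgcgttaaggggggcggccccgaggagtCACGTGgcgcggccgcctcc
Vav1: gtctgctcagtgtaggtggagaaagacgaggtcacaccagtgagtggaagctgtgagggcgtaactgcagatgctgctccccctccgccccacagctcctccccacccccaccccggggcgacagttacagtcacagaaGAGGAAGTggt
Inpp5d: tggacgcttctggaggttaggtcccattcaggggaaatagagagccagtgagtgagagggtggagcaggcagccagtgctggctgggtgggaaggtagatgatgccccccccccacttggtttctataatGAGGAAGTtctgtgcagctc

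GAGGAAGT is a sequence of the kind bound by PU.1, the myeloid lineage factor. It was searched on both strands (ACTTCCTC on the other) and lay 11 bases before the start of Vav1 and 20 bases before that of Inpp5d. It was in 3.2% of all 32851 windows of the same length. CACGTG, an E-box core that reads the same on both strands, lay 20 bases before the start of Plcg2 and was in 7.15% of the windows. The windows of Trem2, Clec7a, Syk and Card9 held neither sequence, and no window of the 7 genes held both.

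The 2 receptors and the adaptor were lower in every APPPS1;Apoe-/- library than in any APPPS1 library. Clec7a averaged 17.0% of its APPPS1 level, Tyrobp 40.5% and Trem2 44.7%. Of the 7 genes strong enough to be tested, these 3 passed the test as lower and 0 as higher. Calls as lower were made for 4.74% of the 13343 genes tested. At an unadjusted p under 0.05, 5 of the 7 were lower and 0 higher. The share of all genes at that unadjusted level was not counted. Counts at that level, here and below, therefore have no background. The test was limma on log2(RPKM + 0.5) for genes whose mean reached 0.5 RPKM, two-sided, with Benjamini-Hochberg adjustment over all genes and a threshold of 0.05. Every change below is a difference on that log2 scale, APPPS1;Apoe-/- minus APPPS1, which understates the change of weak genes.

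Trem2 lies on chromosome 17 (48346401 to 48354147, plus strand, in mm10 with the GENCODE annotation). Its level in the APPPS1 group ran from 71.4 RPKM over a median of 73.9 to 82.3 RPKM, with a mean of 75.4 ± 4.11 (SD, n = 6). In the APPPS1;Apoe-/- group it ran from 16.0 over 38.4 to 44.3 RPKM, with a mean of 33.7 ± 11.97 (SD, n = 7). The groups did not overlap, and the low-App libraries were the lowest, at 16.0 and 17.3 RPKM. The other 5 APPPS1;Apoe-/- libraries held between 36.5 and 44.3 RPKM and averaged 40.5 ± 3.29 (SD, n = 5), or 53.7% of the APPPS1 mean. The change was -1.25 ± 0.22 (SE; limma adjusted p = 0.00286), and -0.89 ± 0.06 without the low-App libraries (adjusted p = 6.59e-07).

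Tyrobp was the most abundant of the 8 genes. It ran from 174 over 211 to 222 RPKM in the APPPS1 group and from 35.9 over 94.4 to 107 RPKM in the APPPS1;Apoe-/- group. The means were 205 ± 18.6 and 83.1 ± 28.7 RPKM (SD, n = 6 and n = 7). Again the groups did not overlap, and 35.9 and 48.5 RPKM came from the low-App libraries. Their 5 companions held 91.8 to 107 RPKM. The change was -1.39 ± 0.22 (limma adjusted p = 0.00125), and -1.04 ± 0.07 without the low-App libraries (adjusted p = 6.48e-07). Tyrobp lies on chromosome 7 (30413760 to 30417585, plus strand), 10.7 Mb from Apoe. Within 15 Mb of Apoe 13.1% of 274 tested genes were called lower and 8.39% higher, against 4.74% and 3.48% over all genes. The part of this position in the Tyrobp result was not tested.

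Clec7a had the largest change of the 8 genes. Its gene is on chromosome 6 (129461591 to 129472779, minus strand); GENCODE lists it as a polymorphic pseudogene and RefSeq as protein coding. In the APPPS1 group it ran from 6.43 over 7.79 to 8.61 RPKM, with a mean of 7.76 ± 0.829 (SD, n = 6). In the APPPS1;Apoe-/- group it ran from 0.149 over 1.55 to 2.18 RPKM, with a mean of 1.32 ± 0.815 (SD, n = 7). The low-App libraries stood apart at 0.149 and 0.256 RPKM, while the other 5 held between 1.35 and 2.18 RPKM, 22.8% of the APPPS1 mean. The change was -2.35 ± 0.29 (limma adjusted p = 2.07e-04), and -1.87 ± 0.10 without the low-App libraries (adjusted p = 8.75e-08).

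Without the low-App libraries the same 3 genes were called lower, beside 3.30% of all tested genes. A complete separation of the groups in this direction, seen for these 3 genes, held for 2.17% of all tested genes. With log2 alignments per library added to the model (the alignments covariate) and all 13 libraries kept, Clec7a (-2.19, limma adjusted p = 0.0117) and Tyrobp (-1.31, adjusted p = 0.0371) kept their call. Trem2 then changed by -1.11 and missed the threshold (adjusted p = 0.0607), beside 0.989% of all genes called lower. With the covariate and without the low-App libraries all 3 were called (-1.93, -1.10 and -0.92 for Clec7a, Tyrobp and Trem2).

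**Figure D1:**
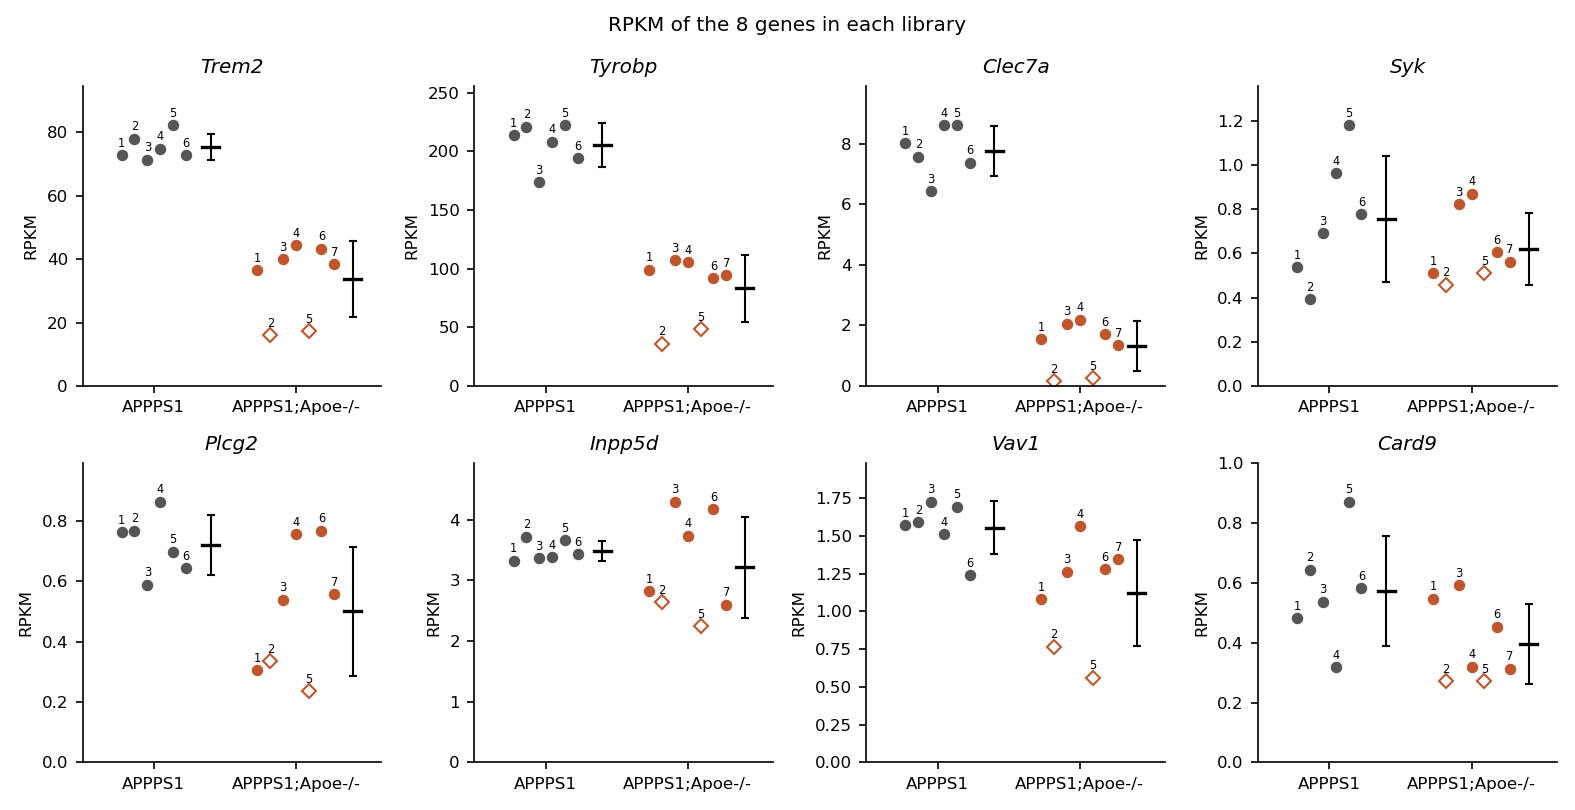
RPKM of each of the 8 genes (vertical axis, from 0) by group (horizontal axis). Points are libraries with their replicate number, open diamonds are the 2 low-App libraries, and bars with whiskers give the mean ± SD of each group (n = 6 and n = 7). The groups are separate for Trem2, Tyrobp and Clec7a and overlap for the other 5 genes, and the low-App libraries are the lowest of their group for Trem2, Tyrobp, Clec7a, Vav1 and Card9.

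The kinase and the genes that act after it were expressed at a low level and overlapped between the groups. Syk (chromosome 13, 52583173 to 52648792, plus strand) ran from 0.394 over 0.735 to 1.18 RPKM in the APPPS1 group and from 0.459 over 0.563 to 0.871 RPKM in the APPPS1;Apoe-/- group. All 7 APPPS1;Apoe-/- libraries lay within the range of the APPPS1 libraries. The change was -0.15 ± 0.14, with a 95% interval from -0.44 to 0.14 (limma adjusted p = 0.540), and -0.08 without the low-App libraries. Syk was also the most variable of the 8 genes among APPPS1 libraries, with an SD of 37.7% of the mean against 5.44% for Trem2.

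Plcg2 (chromosome 8, 117498291 to 117635142, plus strand) ran from 0.589 over 0.730 to 0.864 RPKM in the APPPS1 group and from 0.237 over 0.539 to 0.768 RPKM in the APPPS1;Apoe-/- group. In 5 of 7 APPPS1;Apoe-/- libraries it was below every APPPS1 library, and 2 reached the APPPS1 range. Its change of -0.31 ± 0.13 had a 95% interval from -0.58 to -0.04 and missed the threshold after adjustment (limma adjusted p = 0.136). Without the low-App libraries it was -0.18, with an interval from -0.43 to 0.06 (adjusted p = 0.388).

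Vav1 (chromosome 17, 57279100 to 57328031, plus strand) ran from 1.24 over 1.58 to 1.73 RPKM in the APPPS1 group and from 0.560 over 1.26 to 1.57 RPKM in the APPPS1;Apoe-/- group. Only 3 of 7 APPPS1;Apoe-/- libraries lay below every APPPS1 library, among them the low-App libraries at 0.560 and 0.766 RPKM. The change was -0.37 ± 0.13, with a 95% interval from -0.65 to -0.09 (limma adjusted p = 0.0968), and -0.19 without the low-App libraries (adjusted p = 0.225). Without APPPS1;Apoe-/- replicate 4, where Vav1 was highest in its group, it was called lower (-0.43, adjusted p = 0.0408).

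Inpp5d (chromosome 1, 87620312 to 87720507, plus strand) was nearly constant among APPPS1 libraries and spread widely without Apoe. It ran from 3.32 over 3.41 to 3.72 RPKM in the APPPS1 group, an SD of 4.82% of the mean. In the APPPS1;Apoe-/- group it ran from 2.24 over 2.83 to 4.30 RPKM, an SD of 25.9% of the mean. There 4 libraries lay below and 3 above every APPPS1 library, so none fell within the APPPS1 range. The change of the mean was -0.13 ± 0.12, with a 95% interval from -0.38 to 0.12 (limma adjusted p = 0.538), and -0.01 without the low-App libraries. The difference in spread was not tested.

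Card9 (chromosome 2, 26352176 to 26360918, minus strand) was the weakest of the 8 and the one gene below the filter. It ran from 0.318 over 0.559 to 0.871 RPKM in the APPPS1 group and from 0.270 over 0.320 to 0.591 RPKM in the APPPS1;Apoe-/- group. Of the 7 APPPS1;Apoe-/- libraries 4 fell within the APPPS1 range, and the low-App libraries were the lowest. The means were 0.572 ± 0.183 and 0.395 ± 0.134 RPKM (SD, n = 6 and n = 7), the second being 0.445 ± 0.128 without the low-App libraries (n = 5). In a fit of all genes without a filter its change was -0.26 ± 0.12, with a 95% interval from -0.52 to 0.0041 (limma adjusted p = 0.268).

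In the order of the 8 genes by level per gene length, Clec7a moved between the groups. Tyrobp was above Trem2, Trem2 above Clec7a, Inpp5d above Vav1 and Vav1 above Syk in all 13 libraries. Clec7a was above Inpp5d in 6 of 6 APPPS1 libraries and in 0 of 7 APPPS1;Apoe-/- libraries. It was above Vav1 in 6 of 6 and 5 of 7, the exceptions being the low-App libraries, APPPS1;Apoe-/- replicates 2 and 5. There Clec7a, at 0.149 and 0.256 RPKM, was also below Syk (0.459 and 0.512 RPKM) and Card9 (0.270 and 0.272 RPKM). Syk, Plcg2 and Card9 did not keep an order: Syk was above Plcg2 in 4 of 6 and 6 of 7 libraries, and Plcg2 above Card9 in 5 of 6 and 4 of 7.

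Within a library the receptor, adaptor and kinase did not differ between genotypes by the same amount. The log2 difference Clec7a minus Trem2 averaged -3.20 ± 0.12 in APPPS1 and -4.31 ± 0.25 in APPPS1;Apoe-/- libraries (SD, n = 6 and n = 7), a change of -1.10 (two-sided exact permutation p = 0.000583, the smallest that 1716 splits can give, adjusted p = 0.000874 over 3 differences). The groups did not overlap, running from -3.37 to -3.05 and from -4.66 to -3.99. Syk minus Tyrobp rose by 1.25 (exact permutation p = 0.000583, adjusted p = 0.000874), from -7.38 ± 0.36 to -6.13 ± 0.51, also without overlap. Tyrobp minus Trem2 changed by -0.15 and missed the threshold (exact permutation p = 0.0624, adjusted p = 0.0624). In plain ratios of RPKM, Tyrobp stood at 2.72 ± 0.171 times Trem2 in APPPS1 libraries and at 2.48 ± 0.254 times in those without Apoe. Without the low-App libraries the 3 changes were -0.98, 0.96 and -0.15 (exact permutation p = 0.00216, 0.00216 and 0.0628; the smallest possible is 0.00216).

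**Figure D2:**
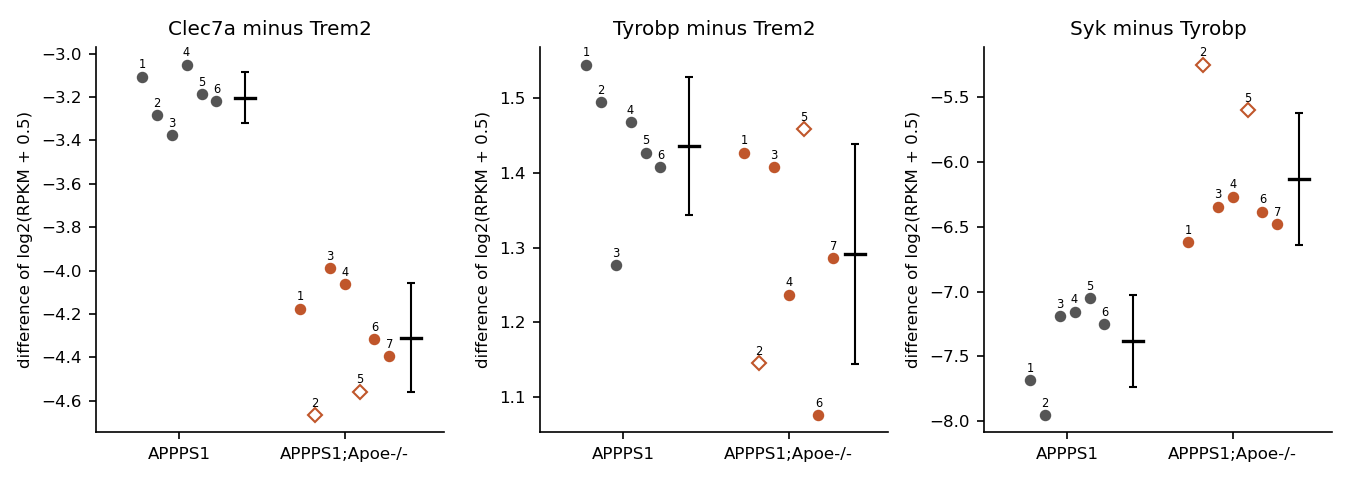
Differences of log2(RPKM + 0.5) within each library (vertical axis; each panel has its own scale, which does not start at 0) by group (horizontal axis), with replicate numbers, open diamonds for the low-App libraries, and bars and whiskers for the mean and SD. Clec7a minus Trem2 lies lower and Syk minus Tyrobp higher in every APPPS1;Apoe-/- library, and Tyrobp minus Trem2 overlaps.

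Markers of microglia, the main cells with these transcripts in brain, moved with the genotypes. The 12 markers summed to between 389 and 458 RPKM in the APPPS1 group, between 306 and 348 RPKM in the 5 APPPS1;Apoe-/- libraries with normal App, and to 194 and 213 RPKM in the low-App libraries. By the same limma test 7 of 12 were lower and 0 higher (11 and 0 at an unadjusted p under 0.05). Of all tested genes 4.74% were called lower and 3.48% higher. All 12 estimates were below 0, and their median change was -0.47 beside -0.01 over all tested genes. Without the low-App libraries 5 of 12 were called lower, beside 3.30% of all tested genes. There 11 estimates were below 0 and the median was -0.30. With the alignments covariate 0 of 12 were called by limma (7 at an unadjusted p under 0.05), beside 0.989% of all tested genes called lower. The median was then -0.39. In bulk tissue fewer microglia and less RNA per microglial cell cannot be told apart.

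The 3 called genes stayed lower when read against these markers. Each gene's log2 value was taken minus the library's mean over the 12 markers, and the whole table was fitted again. Clec7a then changed by -1.91 ± 0.17, Tyrobp by -0.95 ± 0.16 and Trem2 by -0.81 ± 0.16 (limma adjusted p = 2.23e-10, 8.53e-05 and 5.94e-04), and 0.697% of all genes were called lower. On this scale every gene carries the same marker mean, and limma draws each gene's variance toward that of all genes. The SEs and p-values here therefore do not measure each gene's own spread alone, and that of Clec7a may be too small. Without the low-App libraries the values were -1.60, -0.77 and -0.62, all called. With the alignments covariate Trem2 again missed the threshold (-0.73, adjusted p = 0.0609). On this scale the median of all tested genes moved by 0.44, since the markers fell, and 74.8% of all genes were called higher. Inpp5d was 1 of them (0.31 ± 0.14, adjusted p = 0.0412), below that median. With the alignments covariate its value was 0.36 and the call ended (adjusted p = 0.141), as it did under 11 of the 26 alternatives tried. Syk (0.30), Plcg2 (0.13) and Vav1 (0.08) were not called.

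**Figure D3:**
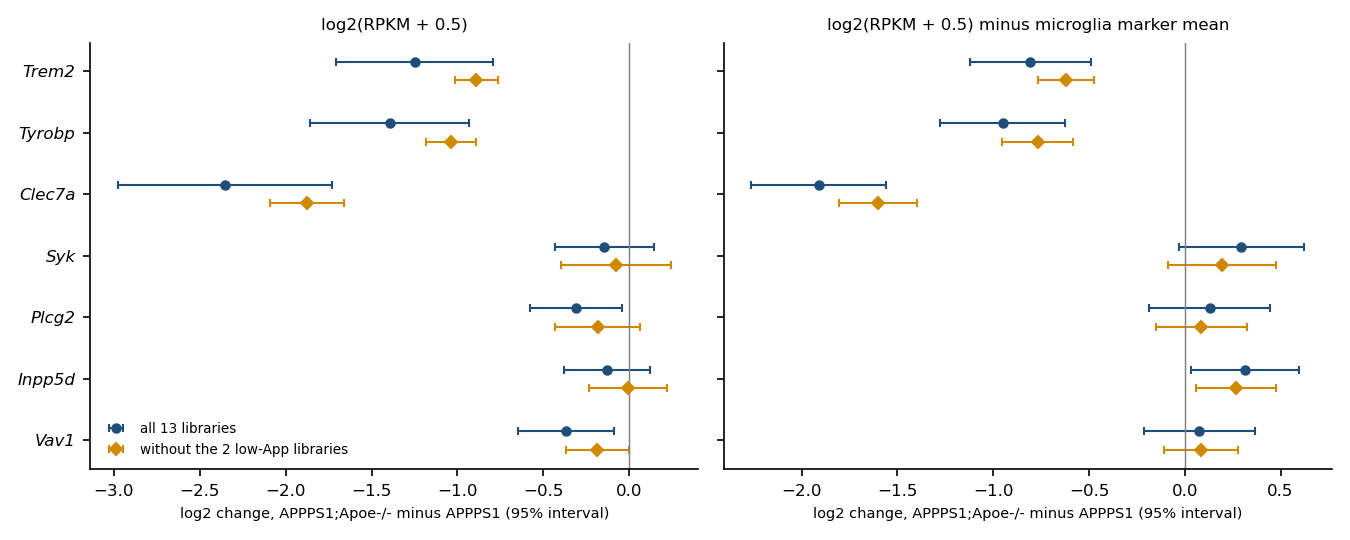
Log2 change, APPPS1;Apoe-/- minus APPPS1 (horizontal axis), of the 7 tested genes (vertical axis) on the plain scale (left) and minus the microglia marker mean (right). Points are limma estimates and lines 95% intervals, blue circles for all 13 libraries and orange diamonds without the 2 low-App libraries. Trem2, Tyrobp and Clec7a lie left of 0 in all 4 estimates, and the intervals of the other genes lie close to or across 0.

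Other cells that carry these genes were read in the same way. Of 8 markers of T and NK cells 7 were under 0.5 RPKM in every library. The B cell marker Cd79b ran from 0.568 to 0.920 RPKM in APPPS1 and from 0.296 to 1.05 RPKM in APPPS1;Apoe-/- libraries and was not called (-0.16, limma adjusted p = 0.548), while Ms4a1 and Cd79a were under 0.5 RPKM everywhere. The 6 markers of perivascular macrophages summed to 4.61 to 6.93 RPKM in APPPS1 libraries and 4.13 to 7.29 RPKM in APPPS1;Apoe-/- libraries. Of the 3 tested 1, Stab1, was called higher, beside 3.48% of all tested genes. Markers of monocytes and neutrophils summed to 1.21 to 3.74 RPKM and 1.92 to 8.50 RPKM, with Ccr2 under 0.5 RPKM in all 13 libraries. Neither of these 2 sums was separate between the groups. Markers of striatal neurons, which a cortical dissection can include, summed to 40.7 to 90.4 and 48.4 to 86.9 RPKM.

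Around the 8 genes, 80 others were listed in 7 groups by their role, of which 79 were in the table and 56 were tested. By the limma test 11 were lower and 0 higher (19 and 1 at an unadjusted p under 0.05), and 9 were lower without the low-App libraries. Of all tested genes 4.74% were called lower and 3.48% higher, and 3.30% were called lower without the low-App libraries. These shares are the background for each list below. The 1 higher estimate was that of Ms4a4a, named after its values were seen, at 0.598 ± 0.258 and 1.03 ± 0.431 RPKM (0.46, adjusted p = 0.139). In the list of receptors and adaptors, which holds ITAM partners of SYK and also Hcst, 3 of 4 tested genes were lower, with a median change of -0.62 (-0.39 without the low-App libraries). Fcer1g, the ITAM adaptor of Fc receptors, fell from 75.1 ± 8.24 to 47.0 ± 13.8 RPKM (-0.73, adjusted p = 0.0215, and -0.45, adjusted p = 0.00424, without the low-App libraries). Siglech, a microglial lectin that pairs with TYROBP, fell from 15.5 ± 1.58 to 10.9 ± 2.27 RPKM (-0.51, adjusted p = 0.0158, and -0.34, adjusted p = 0.0157, without the low-App libraries). Hcst (DAP10), an adaptor that recruits phosphoinositide 3-kinase, fell by 0.83 on the log2 scale (adjusted p = 0.00523), and by 0.74 without the low-App libraries (adjusted p = 0.0209). Hcst lies tail to tail with Tyrobp, 126 bases away on the other strand, so the annotated genes do not overlap. Whether reads of Tyrobp were counted for Hcst was not tested. Clec5a, another receptor that pairs with TYROBP, was at 1.72 and 1.44 RPKM (-0.20, adjusted p = 0.260).

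Among 8 tested Src and Tec family kinases, which phosphorylate ITAMs or act beside SYK, 1 was lower. It was Tec, at 1.54 ± 0.180 and 1.01 ± 0.153 RPKM (-0.44, limma adjusted p = 0.00398), and its change was -0.39 without the low-App libraries (adjusted p = 0.0158). Fyn (-0.13, adjusted p = 0.139) and Lyn (-0.22, adjusted p = 0.363), the most abundant of those not called, missed the threshold. The median of the list was -0.14.

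Of 11 tested adaptors, exchange factors and phospholipases downstream of SYK, 4 were lower and the list's median was -0.07. Lat2 (LAB), a membrane adaptor of myeloid and B cells, had the largest change, from 7.18 ± 0.985 to 3.46 ± 0.947 RPKM (-0.99, limma adjusted p = 9.89e-04). Its groups did not overlap, which in this direction held for 2.17% of all tested genes. Without the low-App libraries Lat2 changed by -0.77 (adjusted p = 1.82e-04). Sh3bp2, an adaptor that binds SYK, changed by -0.48 (adjusted p = 0.0114) and by -0.38 without the low-App libraries (adjusted p = 0.0249). The scaffold adaptors Blnk (-0.47, adjusted p = 0.0215) and Lcp2 (-0.39, adjusted p = 0.0340) lost their call without the low-App libraries. The change of Blnk was then -0.44 (adjusted p = 0.0719) and that of Lcp2 -0.25 (adjusted p = 0.0801). Grb2, a general adaptor of receptor signalling, was at 26.8 and 25.7 RPKM (-0.06, adjusted p = 0.610), and the GTPase Rac2 at 4.29 and 3.33 RPKM (-0.35, adjusted p = 0.0851).

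Among 10 tested genes of phosphoinositide 3-kinase and lipid phosphatases, 1 was lower, with a median of -0.04. This was Pik3ap1 (BCAP), an adaptor that binds phosphoinositide 3-kinase, at 1.22 ± 0.218 and 0.612 ± 0.217 RPKM (-0.64, limma adjusted p = 0.00588), with a change of -0.50 without the low-App libraries (adjusted p = 0.0171). Akt2 (0.15, adjusted p = 0.214) and Akt1 (-0.18, adjusted p = 0.0698) were not called. In the Card9 branch, with NF-kappaB and NFAT factors, 0 of 8 tested genes were called by limma and 1 had an unadjusted p under 0.05. Rela, a subunit of NF-kappaB, changed by -0.06 (adjusted p = 0.516) and Bcl10, the partner of CARD9, by -0.01 (adjusted p = 0.945).

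Of 8 tested negative regulators of SYK signalling 2 were lower, with a median of -0.03. Ptpn6 (SHP-1), a tyrosine phosphatase of blood and myeloid cells, fell from 6.41 ± 0.309 to 3.88 ± 1.01 RPKM (-0.69, limma adjusted p = 0.00491), and its change was -0.48 without the low-App libraries (adjusted p = 3.04e-04). Dok1, an adaptor that dampens kinase signals, changed by -0.47 (adjusted p = 0.00804) and by -0.43 without the low-App libraries (adjusted p = 0.0234). Ubash3b (-0.02, adjusted p = 0.930) and Ptpn11 (0.14, adjusted p = 0.283), both phosphatases, were not called. Among 7 tested genes of Trem2 shedding and the Ms4a cluster, 0 were called by limma and 2 had an unadjusted p under 0.05. The proteases that cleave TREM2 from the cell surface, Adam10 (-0.09, adjusted p = 0.366) and Adam17 (-0.19, adjusted p = 0.106), were among those not called.

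With the alignments covariate only Lat2 (-0.99, limma adjusted p = 0.0248) and Hcst (-0.90, adjusted p = 0.0492) of the 11 kept their call. Of all tested genes 0.989% were then called lower. The other 9 missed the threshold with changes from -0.73 for Fcer1g to -0.32 for Lcp2 (adjusted p from 0.0535 for Blnk to 0.245 for Lcp2). Among these the changes of Pik3ap1 (-0.68), Blnk (-0.61), Dok1 (-0.50) and Fcer1g were as large as or larger than without the covariate. Those of Ptpn6 (-0.65), Siglech (-0.46), Tec (-0.43), Sh3bp2 (-0.42) and Lcp2 were smaller. Lat2 and Hcst were also lower relative to the microglia markers (-0.54 and -0.39, limma adjusted p = 0.00371 and 0.0374), beside 0.697% of all tested genes. The other 9 were not called on that scale. Their changes ran from -0.29 for Fcer1g (adjusted p = 0.0824) to 0.05 for Lcp2 (adjusted p = 0.701).

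**Figure D4:**
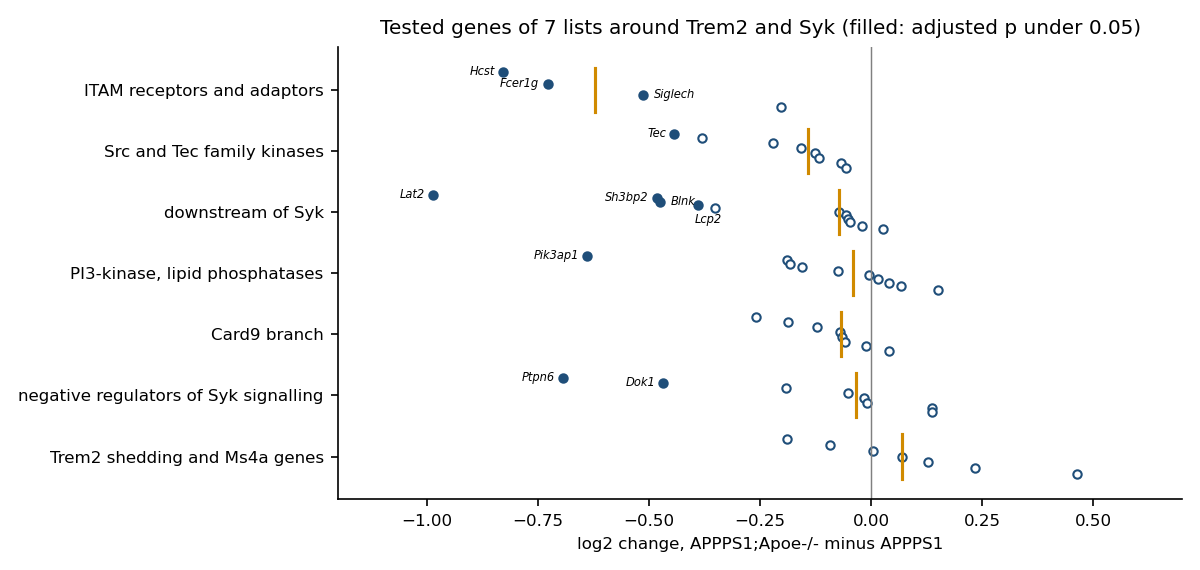
Log2 change, APPPS1;Apoe-/- minus APPPS1 (horizontal axis), of the 56 tested genes in 7 lists (vertical axis). Filled points passed limma's threshold of an adjusted p of 0.05 and are named, open points did not, and orange bars are list medians; 11 genes are filled, all left of 0.

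How the genes varied from library to library depended on the low-App libraries. Correlations were taken over deviations of log2(RPKM + 0.5) from the group mean; the points share library, depth and tissue piece, so they are given as a description. Over all 13 libraries Pearson's r was 0.96 for Trem2 with Tyrobp, 0.98 for Trem2 with Clec7a and 0.98 for Tyrobp with Clec7a. Over the 11 libraries with normal App it was 0.42, 0.65 and 0.75. Syk with Tyrobp had 0.37 over 13 and 0.20 over 11 libraries.

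The genes most like each of 4 members over the 11 libraries were the top 3 by the same r. They were picked as the highest of the 13343 tested genes after unnamed gene models (Gm numbers and Rik) were left out. For Trem2 these were Hook3 (0.91), Pf4 (0.91) and Plxna3 (0.91), at 0.57, 0.45 and 0.57 over all 13. For Tyrobp these were Uba7 (0.97), Arhgap42 (0.93) and Trim30d (0.92), at 0.75, -0.21 and 0.84 over all 13. For Clec7a they were Trim44 (0.97), Podxl (0.96) and Slc8a1 (0.93), at 0.80, 0.76 and 0.70 over all 13. For Syk they were Cttnbp2nl (0.95), Tjp1 (0.92) and Lmf2 (0.91), at 0.94, 0.84 and 0.41 over all 13. Of these 12 genes Uba7 and Trim30d were themselves lower in the APPPS1;Apoe-/- group (-0.41 and -0.65, limma adjusted p = 0.00980 and 0.00450). The others were not called, and 4.74% of all tested genes were called lower. Uba7 activates the ubiquitin-like protein ISG15, and Trim30d is interferon-inducible.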

How the data were processed

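RNA was extracted with Trizol and libraries were made with the Clontech SMARTer kit, per the labels' protocols. The authors deposited RPKM per gene (reads scaled by gene length and mapped reads) for 13 libraries in 1 table, with the number of alignments per library. Partek and the mm10 build were used, per the submitters' processing notes. For the aligner, counting rule, strand use and annotation, the sources used here give nothing. Depth is known only as alignments, so no counting intervals are given.

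Groups came from the genotype labels, which match the table for 13 of 13 libraries. The labels give no replicate numbers, so replicates are named in deposit order. No pair of libraries was identical (correlations 0.981 to 0.994). Genes whose mean reached 0.5 RPKM were tested on log2(RPKM + 0.5) with limma 3.58.1 (lmFit, eBayes with trend) in R 4.3.3, on the whole table. P-values measure the spread between these libraries, which the series' design counts as mice. Relative to the microglia markers they also rest on the marker mean that all genes share. The 3 differences between genes were tested by exact permutation over libraries in Python 3.11.15 (numpy 2.4.6, pandas 2.3.3, scipy 1.17.1, matplotlib 3.10.9). On simulated data with 13343 genes in this comparison, 84.4% of genes changed by 0.5, 98.6% by 1 and 100% by 2 (log2) were called, and 4.55% of calls were false. The simulation gave each gene independent normal noise with 1 SD for both groups. The measured genes were correlated and could differ in spread, as Trem2 did (SD 5.44% and 35.5% of the group mean). These rates therefore need not hold for the calls above.

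The 8 genes, the gene lists, the markers and the alternatives were chosen with earlier results of these data known. Named besides the 8 genes, Apoe, App and Thy1 are, per list, up to 4 called genes by adjusted p and up to 2 others by mean RPKM, and the 3 genes most like each of 4 members. Tried were other pseudocounts, filters, scalings and variance models, a 4-marker reference, a score of sex (Xist against Y-linked genes), alignments as a covariate, and leaving out libraries. Positions are GENCODE mouse release 21.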

Additional observations from a re-analysis of the deposited data

How the results depend on the processing

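Clec7a and Tyrobp were called lower under all 25 alternatives tried (-2.84 to -1.87 and -1.47 to -1.04), and Trem2 under 24, the exception being the alignments covariate (-1.11). The number of members called ran from 2 to 4. The number of genes called was 1098 and became 677 without the low-App libraries, 202 with the alignments covariate, 281 with both, and 711 to 1594 when 1 library was left out, lowest without APPPS1 replicate 6. Quantile normalization gave 608 lower and 687 higher genes, against 633 and 465. Relative to the microglia markers, 1 of the 7 tested members (Inpp5d) was called higher, beside 74.8% of all tested genes. Over all 13343 tested genes 9982 were called higher, and 157 with the alignments covariate. The number of members called higher became 0 with the alignments covariate, the sex score, a pseudocount of 0.1 or no filter. It became 2 with a pseudocount of 1 or the reference of 4 markers. Leaving out 1 library gave 0 to 1. Of the pathway genes 11 were called lower, and 9 to 13 with 1 library left out. There were 2 with the alignments covariate and 5 with that and without the low-App libraries. A filter at a mean of 2 RPKM gave 7. It left Tec, Dok1, Pik3ap1 and Sh3bp2 untested, whose means were 1.25, 1.21, 0.891 and 0.782 RPKM. Over all tested genes 633 of 13343 were called lower, 132 with the alignments covariate, 197 with both changes and 494 of 9842 with that filter. Of the pathway genes 0 were called higher, and 1 without APPPS1;Apoe-/- replicate 3 (leaving out 1 library gave 0 to 1). Tyrobp minus Trem2 ran from -0.18 to -0.11 with 1 library left out, and it passed the threshold without APPPS1 replicate 3 or APPPS1;Apoe-/- replicates 1 or 5 (exact permutation adjusted p = 0.0265, 0.0390 and 0.0325). Apart from the genes left untested by the filter at a mean of 2 RPKM, the cause of these shifts was not tested. No paired analysis was possible because the labels carry no replicate numbers. Syk, Plcg2 and Card9 lie near 0.5 RPKM, where the pseudocount shrinks changes and depth, lower in the APPPS1;Apoe-/- group, limits precision. Clec7a lies below 0.5 RPKM in the low-App libraries (0.149 and 0.256 RPKM), so the size of its change also depends on the pseudocount. Clec7a minus Trem2 changed by -1.58 with a pseudocount of 0.1 and by -0.77 with 1, beside -1.10 with 0.5 (exact permutation adjusted p = 0.00175, 0.000874 and 0.000874).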
